A study of Homo sapiens with 6 samples.

Results

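The 10 genes described here encode KAT8, the catalytic subunit of the NSL and MSL histone acetyltransferase complexes, and 9 further subunits of these complexes. They were chosen by name and not by their values, and all 10 are among the 19792 genes of the table. KANSL1, KANSL2, KANSL3, MCRS1, PHF20, PHF20L1 and OGT are 7 subunits of the NSL complex, and MSL1 and MSL2 are 2 subunits of the MSL complex. The samples are BT-549 cells, a human triple-negative breast cancer line, transduced with a puromycin-selected vector (tet-WDR5) that expresses a WDR5 shRNA under tetracycline control. Both groups carry the shRNA, and whether the transduced line is a clone is not given in the sources used here. The 6 RNA libraries come from 3 vehicle cultures (0.1% DMSO) and 3 cultures given doxycycline (DOX) at 500 ng/ml, with a treatment time of 7 days in the study's text. An effect of DOX itself and an effect of WDR5 silencing cannot be told apart in this design.

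KAT8, also known as MOF, transfers acetyl groups to lysine 16 of histone H4, a mark that loosens the packing of chromatin. In the MSL complex it is held by MSL1 and acts on gene bodies and, in flies, on the male X chromosome. In the NSL complex it is bound to promoters of housekeeping genes together with WDR5, the protein that is also a core subunit of the COMPASS methyltransferases. WDR5 is absent from the MSL complex, so the pair of complexes shares an enzyme but not the protein that the shRNA targets.

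The values analysed are the authors' mean normalized counts, 1 per gene, taken over all 6 libraries of both groups. This column holds no value of a single library, so it carries no error, and neither the order of any 2 genes nor a difference between DOX and vehicle was tested. A gene that differed between the groups would appear here only at a level between the 2 group levels. For comparison between genes, the authors' mean was divided by the length of the gene's exons, and the result is given as normalized counts per kilobase (kb). The silencing of WDR5 itself was not checked here. The authors' mean of 1143 for WDR5 pools DOX and vehicle cultures, and the authors' own comparison of these groups was not used. The cell line was checked by its markers. The mesenchymal genes VIM, CDH2, FN1 and ZEB1 had authors' means from 4093 to 47782, whereas the luminal genes ESR1, PGR and EPCAM were near 0 (0.790, 0.801 and 1.30). Of the other luminal genes, KRT8 and CDH1 were low at 57.3 and 59.6, while KRT18 (435) was detected. ERBB2, which was listed with them, had 1221, above 64.5% of genes with an authors' mean of at least 10. Among the markers of other cell types, PTPRC (44.7) and PECAM1 (2.86) were low. COL1A1 (4755) and ACTA2 (4512), which mark fibroblasts and myofibroblasts, were well above them.

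The 10 genes were all expressed, with KAT8, the enzyme itself, at the lowest authors' mean of 286. The authors' means of the other 9 genes ranged from 689 for KANSL2 to 3743 for OGT. Per kb of exon, the members ranged from 33.0 for KANSL1 to 405 for MSL1, a 12.3-fold span with a median of 202. The span was 7.20-fold with the longest transcript, 29.3-fold with the median transcript and 8.17-fold with the coding length. The median transcript is shorter than the coding length for all members except KAT8, MSL2 and OGT. For PHF20 it has 630.5 bases against 3036 coding bases, and for MSL1 1401 against 1842. Levels and ratios with the median transcript carry this limit throughout. The median of all 12938 genes with an authors' mean of at least 10 and an annotated length was 130 per kb. By this scale 7 of the 10 members lay above the median gene, and 3 of them (MSL1, PHF20 and OGT) lay in the top 25% of genes. KANSL3, KAT8 and KANSL1 lay below the median gene, KANSL3 only narrowly at 126 per kb. By the authors' mean, not divided by length, 9 of the 10 lay above the median gene. Places among all genes were not computed with the other lengths.

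**Figure D1:**
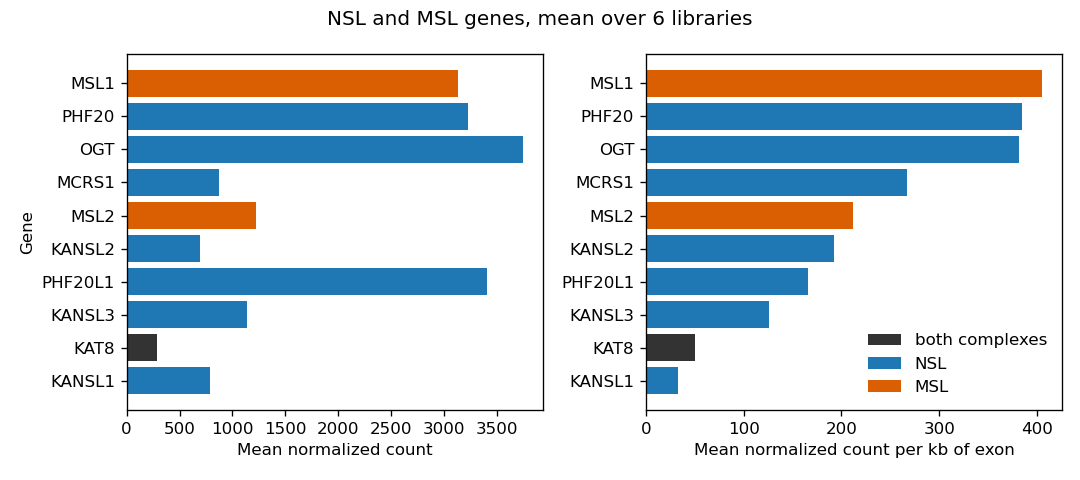
Authors' mean normalized count over all 6 libraries (left) and the same value per kb of exon (right) for the 10 genes, coloured by complex; there are no error bars because the column holds 1 value per gene. OGT has the longest bar on the left (3743) and MSL1 on the right (405), and KAT8 and KANSL1 have the shortest bars on the right (49.9 and 33.0).

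KAT8 lies on chromosome 16 of GRCh38 from 31114489 to 31131393 on the plus strand (GENCODE 44). Its canonical transcript encodes 458 residues. Its authors' mean of 286 ranked 9066 of the 19792 genes. Per kb of exon its level was 49.9, above 30.0% of expressed genes. KAT8 was thus at 1 of the 2 lowest levels among the 10 genes. KAT8 belongs to the MYST family of acetyltransferases, and its relatives KAT5 (TIP60), KAT6A (MOZ), KAT6B (MORF) and KAT7 (HBO1) were taken for comparison. Their levels per kb were 245, 260, 61.4 and 98.4. KAT8 was the lowest of the 5 on this scale and also when the longest transcript, the median transcript or the coding length was used. The ratio of KAT5 to KAT8 was 4.91 per kb of exon and ranged from 2.68 (coding length) to 7.15 (median transcript) with the other lengths. The ratio of KAT7 to KAT8 was 1.97 per kb of exon and ranged from 1.5 (longest transcript) to 4.27 (coding length). KAT5 was above KAT7 on 3 of the 4 scales and below it by coding length.

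The MSL complex is built around MSL1, a scaffold that binds KAT8 and MSL3. MSL1 lies on chromosome 17 from 40121971 to 40136917. Its authors' mean was 3132 and its level per kb was 405, above 77.8% of expressed genes. MSL2, a RING-type ubiquitin ligase that pairs with MSL1, lies on chromosome 3 from 136148917 to 136197241. Its authors' mean was 1227 and its level per kb was 212, above 62.6% of expressed genes. MSL1 therefore stood 1.91-fold above MSL2 per kb of exon, the smallest ratio of the 4 lengths, with 2.63, 5.0 and 2.40 for the longest transcript, the median transcript and the coding length. It stood 8.12-fold above KAT8 per kb of exon, with 5.44, 12.8 and 8.17 for the other lengths in the same order. MSL3, the chromodomain subunit, was not among the 10 genes and had a level of 96.7 per kb. The order MSL1, MSL2, MSL3, KAT8 held with every length used. MSL2 and MSL3 were nearly level, at a ratio of 1.03, with the median transcript length.

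The core of the NSL complex is formed by the KANSL proteins. KANSL1 is the scaffold that contacts both KAT8 and WDR5, and loss of 1 copy of the gene causes a developmental syndrome. KANSL1 lies on chromosome 17 from 46029916 to 46225389 on the minus strand. Its authors' mean was 786, but its level per kb was 33.0, the lowest of the 10 genes and above 23.7% of expressed genes. The length behind this value is large. The 36 annotated KANSL1 transcripts cover 23858 bases of exon, whereas the longest single transcript has 9095 bases, which gives 86.4 per kb. By coding length the level of KANSL1 was 237 per kb and that of KAT8 was 208. KANSL1 and KAT8 held the 2 lowest places of the 10 genes with each of the 4 lengths, in either order. With the median transcript KANSL1 (444 per kb) was nearly level with MSL2 (447 per kb). Without division by length KANSL1 held place 8.

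KANSL2, which also binds WDR5, lies on chromosome 12 from 48653211 to 48682238. Its authors' mean of 689 was below that of KANSL1, but its level per kb was 193, a ratio of 5.85 to KANSL1. This ratio rests on the long exon union of KANSL1, and was 2.94, 1.87 and 1.97 with the longest transcript, the median transcript and the coding length. KANSL3 lies on chromosome 2 from 96593170 to 96642787. Its authors' mean was 1133 and its level per kb was 126, above 49.4% of expressed genes. The ratio of KANSL2 to KANSL3 was 1.53 per kb of exon and between 1.09 and 1.19 with the other lengths, with KANSL2 the higher on each.

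MCRS1, a forkhead-associated domain protein that also acts at the mitotic spindle, lies on chromosome 12 from 49556544 to 49568145. Its authors' mean was 873 and its level per kb was 268, above 68.4% of expressed genes. MCRS1 stood 5.36-fold above KAT8 per kb of exon, and 3.11-fold, 4.96-fold and 3.03-fold above it with the longest transcript, the median transcript and the coding length. With 3261 bases, it has the shortest exon union of the 10 genes.

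PHF20 and PHF20L1 are related proteins with Tudor domains, which bind methylated lysines. PHF20 lies on chromosome 20 from 35771974 to 35950370, and PHF20L1 on chromosome 8 from 132775358 to 132848807. Their authors' means were close, at 3220 for PHF20 and 3407 for PHF20L1. Per kb of exon the levels were 385 for PHF20 and 166 for PHF20L1. This difference follows from the lengths, since the exon unions are 8372 and 20571 bases. By coding length, with proteins of 1012 and 1017 residues, PHF20L1 was 1.05-fold above PHF20. With the longest transcript and the median transcript PHF20 was 1.26-fold and 3.80-fold above PHF20L1. The order of the 2 paralogs thus changed only by coding length, where they were nearly level.

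OGT is the enzyme that adds single N-acetylglucosamine sugars to nuclear and cytosolic proteins, and it processes the NSL subunit HCFC1. OGT lies on chromosome X from 71533087 to 71575892. Its authors' mean of 3743 was the highest of the 10 genes, at rank 1615 of 19792. Its level per kb was 382, next to that of PHF20 (ratio 0.993). With the other lengths this ratio was 0.815 (longest transcript), 0.178 (median transcript) and 1.12 (coding length), so the order of OGT and PHF20 depended on the length used. OGA, the enzyme that removes the sugar and is listed under its older symbol MGEA5, had an authors' mean of 9463. Its level per kb was 1306, a ratio of 3.42 to OGT. OGA was above OGT with every length used, at ratios from 2.89 (coding length) to 9.57 (median transcript).

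**Figure D2:**
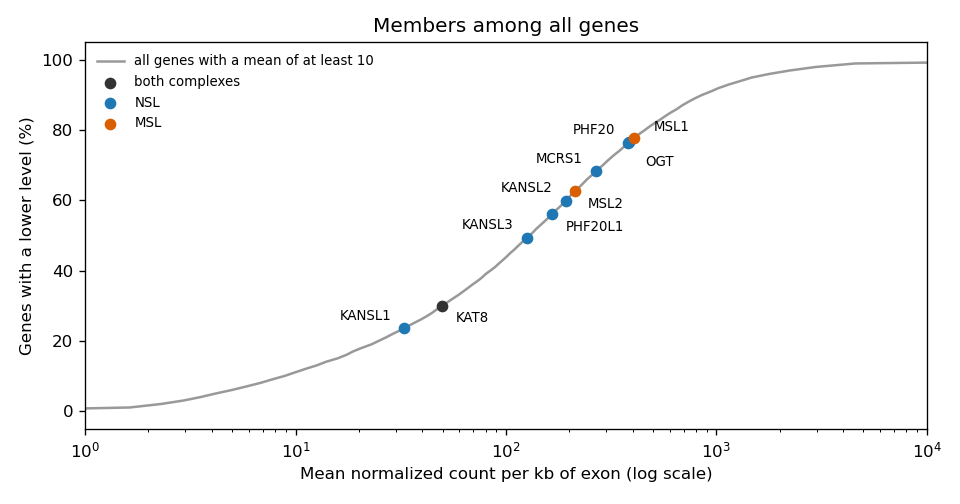
Share of expressed genes with a lower level (vertical axis, percent) against the level per kb of exon (horizontal axis, log scale). The grey curve is all genes with an authors' mean of at least 10, and the 10 genes sit on it from 23.7% for KANSL1 to 77.8% for MSL1.

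The subunits outside the 10 genes lay within their range. HCFC1, a chromatin adaptor that is cleaved by OGT, had a level of 324 per kb and WDR5 had 314 per kb. Both lay between MCRS1 (268) and OGT (382) on the scale per kb of exon. By coding length WDR5 stood at 1141 per kb and HCFC1 at 478. The level of WDR5, the gene that the shRNA targets, pools DOX and vehicle cultures and is the level of neither group. Of the proteins that join WDR5 in the COMPASS core, RBBP5 had 402 per kb of exon, ASH2L 536 and DPY30 221. Their order depended on the length, and by coding length DPY30 was highest (2026, with ASH2L at 1609 and RBBP5 at 1097). SIRT1 and SIRT2, which remove acetyl groups from lysine 16 of histone H4, had 598 and 169 per kb of exon. With the median transcript SIRT2 was the higher (1205 against 823).

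**Figure D3:**
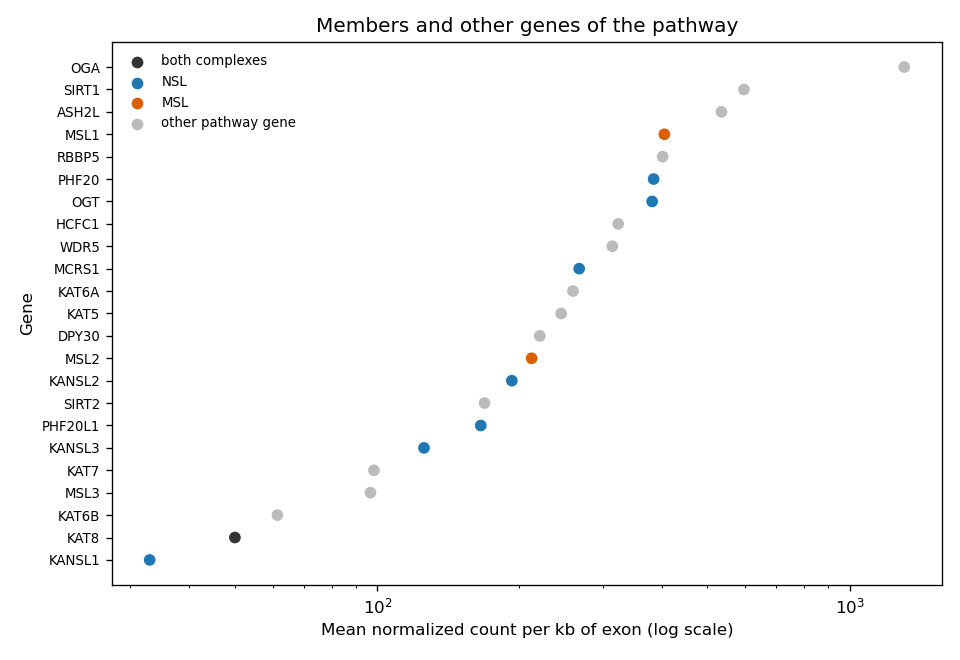
Level per kb of exon (log scale) of the 10 genes, coloured by complex, and of 13 other genes of the pathway in grey, ordered by level. OGA is highest at 1306 per kb, and KAT8 and KANSL1 are lowest at 49.9 and 33.0.

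The choice of length moved single members more than the ends of the order. MSL1 was first with 3 lengths and second to PHF20 with the median transcript length. PHF20L1 held place 7 per kb of exon, place 4 with the longest transcript and place 3 with the other lengths. KANSL3 held place 8 except with the median transcript length, where it held place 7.

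**Figure D4:**
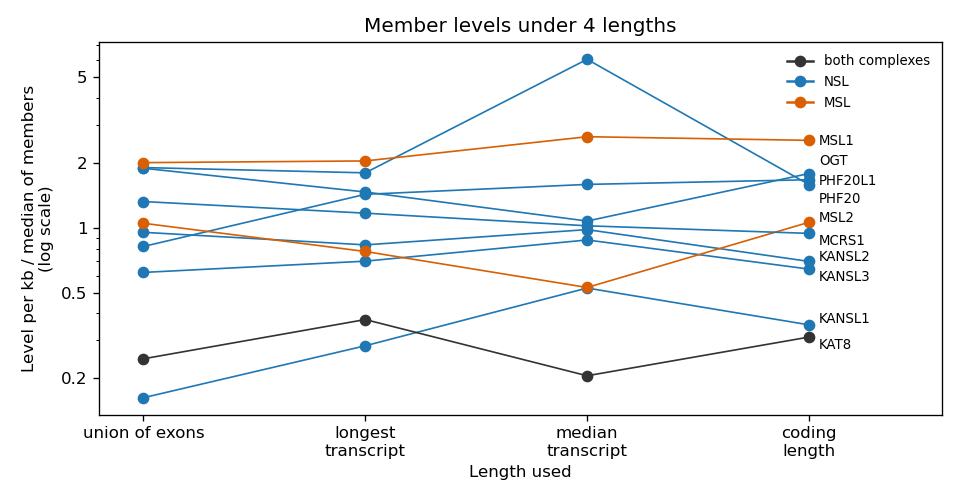
Level per kb of each of the 10 genes divided by the median of the 10 (vertical axis, log scale) with 4 lengths (horizontal axis): union of exons, longest transcript, median transcript and coding length. KAT8 and KANSL1 are the 2 lowest with each length, and PHF20 rises with the median transcript, which is 630.5 bases long.

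Reads of other genes were considered as a limit of these levels. KANSL1, KANSL3, MCRS1 and PHF20L1 share exon bases with a gene on the opposite strand, from 0.499% of the exon bases of KANSL3 to 2.71% of those of PHF20L1. The libraries were stranded, but the setting of the counter is not given in the sources used here. KANSL1-AS1, which overlaps KANSL1, had an authors' mean of 5.23. Words of 50 bases from the transcripts of each gene were searched in the transcripts of genes that do not overlap it. For KANSL1, 2.15% of the words were found elsewhere, mostly in LINC02210, and for KAT8 the share was 2.58%. The share was 0% for KANSL2, MCRS1 and MSL2. The relative KANSL1L had an authors' mean of 229 and the MSL3 pseudogene MSL3P1 had 152.

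Promoters were taken from RefSeq (GRCh38.p14), as 300 bases around each start, and 8 of the 10 genes had an entry, with 12 starts in all. KAT8 and PHF20L1 had none. The promoters of the 8 genes had a median GC content of 65.2% (range 50.3% to 79.3%) and 27.5 CG pairs, beside 58.7% and 14 over all 35116 promoters. The full set was not restricted to expressed genes, whereas all members are expressed. The E-box CACGTG, the site of MYC and related factors, was found in 3 of the 12 promoters (25%), those of MCRS1, PHF20 and 1 start of KANSL1, and is held by 7.26% of all promoters. The NRF1 core GCATGCGC was found in 3 of the 12 (25%), those of MSL1, OGT and 1 start of MSL2, and is held by 3.05% of all promoters. The ETS core CCGGAAG was found in KANSL3 (10.3% of all promoters) and ACTACA, part of the THAP11 and ZNF143 site, in KANSL1 and OGT (8.46% of all promoters). AAGATGGC, the YY1 core, was found in none of the 8 genes and in 2.89% of all promoters. Both strands were searched, and a match of letters is a description of the sequence only.

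The 250 bases before the start of the 3 genes with the highest levels per kb of exon are shown, 5′ to 3′ on the strand of the gene. They set sequences beside the levels of 405, 385 and 382 per kb. This choice rests on the length used. PHF20L1, which had no promoter entry, held place 3 with the median transcript and the coding length. Capitals mark the letters of a searched motif. In MSL1 the NRF1 core spans the start, with 4 of its bases before it and 4 after it, so it is not whole in the window shown and no capitals appear. The windows are chr17:40121721-40121970 for MSL1, chr20:35771765-35772014 for PHF20 and chrX:71532854-71533103 for OGT, all on the plus strand.
MSL1: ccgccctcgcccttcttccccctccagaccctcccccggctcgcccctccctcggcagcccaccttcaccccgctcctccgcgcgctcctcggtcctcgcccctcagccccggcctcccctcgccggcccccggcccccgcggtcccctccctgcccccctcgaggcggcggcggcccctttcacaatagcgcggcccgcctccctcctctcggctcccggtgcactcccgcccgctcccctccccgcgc
PHF20: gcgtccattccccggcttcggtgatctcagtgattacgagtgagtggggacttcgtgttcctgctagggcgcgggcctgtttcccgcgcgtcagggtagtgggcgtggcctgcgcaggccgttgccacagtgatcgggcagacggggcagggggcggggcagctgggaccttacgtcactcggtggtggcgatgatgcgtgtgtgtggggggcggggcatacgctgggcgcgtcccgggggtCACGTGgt
OGT: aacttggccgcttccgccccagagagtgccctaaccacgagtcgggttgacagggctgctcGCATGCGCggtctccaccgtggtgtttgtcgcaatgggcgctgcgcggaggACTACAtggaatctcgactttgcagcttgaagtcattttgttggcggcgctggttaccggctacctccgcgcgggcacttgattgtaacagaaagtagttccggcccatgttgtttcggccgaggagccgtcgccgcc
The E-box of PHF20 is 2 bases from the RefSeq start, and the window of OGT holds both an NRF1 core and an ACTACA. The GENCODE starts given above lie upstream of these RefSeq starts for PHF20 (35771974) and OGT (71533087). The last bases of both windows, with the E-box of PHF20, therefore lie inside the gene as GENCODE places it.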

How the data were processed

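The authors sequenced RNA from 6 cultures of BT-549 cells carrying the inducible WDR5 shRNA, 3 per group. Stranded poly(A) libraries were aligned by the authors with STAR to GRCh38 and the counts normalized by the authors with DESeq2 (submitters' processing notes and the study's methods). The counter, the filter on low counts and the versions are not given in the sources used here. The deposited signal value is the authors' mean of normalized counts over both groups, which sums to 26551206; the depth of single libraries is unknown. The other columns hold the authors' own comparison of DOX with vehicle (log2 fold change, its error, statistic and p-values) and were not used, so no test was made.

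Exon unions, transcript and coding lengths came from GENCODE 44 (GRCh38). The annotation the authors counted on may be another release, with other exons, so every level per kb may differ from one based on their annotation. Of 19792 symbols, 17571 matched directly, 589 through an older symbol (from the fixed lists or a RefSeq synonym) and 1632 did not match. Expressed genes have an authors' mean of at least 10. Percentiles and lengths were tested on simulated data. The 10 genes, the other pathway genes and the markers were named by rule, as fixed lists, with earlier results of these data known. Motifs were chosen after the levels were seen. Alternatives were other lengths, other backgrounds and no division by length. Python 3.11.15, numpy 2.4.6, pandas 2.3.3 and matplotlib 3.10.9 were used.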

Additional observations from a re-analysis of the deposited data

How the results depend on the processing

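The median percentile of the 10 genes, 63.7 by the authors' mean, was 75.1 among all genes listed, 54.5 among genes with a mean of at least 100 and 61.2 per kb of exon. The number of genes above the 75th percentile was 4, and 5, 4 and 3 under these alternatives. The ratio of the highest to the lowest gene, 12.3 per kb of exon, was 13.1 without division by length, 7.20 with the longest transcript, 29.3 with the median transcript and 8.17 with coding length. The summed level of the 7 NSL genes over that of the 2 MSL genes was 2.51 per kb of exon and 3.18 without division by length. These sums hold unequal numbers of genes and leave out KAT8, HCFC1, WDR5 and MSL3. The ratio is therefore no comparison per gene or of the complexes. Per kb of exon the median of the 7 NSL genes was 193, below MSL1 (405) and MSL2 (212). The place below MSL2 depended on the length. With the other lengths the middle NSL gene was MCRS1. It lay above MSL2 with the longest transcript (356 against 237 per kb) and the median transcript (864 against 447). By coding length it lay below MSL2 (630 against 709). The levels of single genes per kb all depended on the length used. The spread between cultures is unknown from the authors' mean, so no difference between genes has an error, and no alternative that leaves out a culture was possible. No paired analysis was possible because the table holds no column of a single library.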
